A study of Mus musculus with 12 samples.

Results

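Regulatory T (Treg) cells are CD4+ T cells that restrain other immune cells, and the 10 genes described here encode transcription factors and surface proteins by which they are recognised: Foxp3, Ikzf2, Ikzf4, Nrp1, Itgb8, Lrrc32, Gpr83, Itgae, Nt5e and Entpd1. They were listed by name, as Treg genes shared little with ordinary T cell activation, and the rule that picks them uses no measured value, although earlier results of these data were known when the list was drawn up. All 10 were among the 45777 genes of the deposited table, and all 10 passed the filter on low values that left 15197 genes for testing. The study placed 4 of them, Foxp3, Ikzf2, Nrp1 and Itgb8, among the Treg genes it displayed from these same samples, so their direction is not independent evidence.

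CD4+ T cells were taken with magnetic beads from the spleens of wild type C57BL/6 mice, labelled as 7 weeks old, and poly(A) RNA was sequenced from 12 samples. Every culture received anti-CD3 (0.5 µg/ml), which triggers the T cell receptor, for 3 days. The Control group (n = 3) had no drug, and the other groups had Metformin (n = 3), FK506 (n = 3) or Metformin+FK506 (n = 3). FK506 is tacrolimus, which blocks the phosphatase calcineurin and thereby keeps the transcription factor NFAT out of the nucleus, and metformin is a drug for diabetes that slows mitochondrial respiration and activates the energy sensor AMPK. The drug doses of these cultures are not given in the sources used here, and the study's general culture conditions add soluble anti-CD28, which the labels do not name. Nothing says whether the 3 samples of a group came from separate mice or cultures, so p-values measure the spread between these samples, which may be technical.

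Foxp3 is the transcription factor that defines the Treg lineage and is needed to keep it. It works with factors of the Ikaros family, including Helios (Ikzf2) and Eos (Ikzf4). Treg cells act in part through TGF-beta, which GARP (Lrrc32) tethers to the cell surface in its latent form and the integrin chain beta-8 (Itgb8) helps to release. They also act through adenosine, which CD39 (Entpd1) and CD73 (Nt5e) make in sequence from extracellular ATP. Several are not confined to T cells: Nrp1, Entpd1, Nt5e, Lrrc32 and Itgb8 are also known from other cells, such as dendritic cells, macrophages, B cells, platelets or endothelium.

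Levels are given as FPKM, fragments scaled to transcript length and library size, and differences between groups as log2 fold changes with their standard error (SE). The fold changes and adjusted p-values came from edgeR's quasi-likelihood test on the read counts of all 12 samples, with Benjamini-Hochberg adjustment over the 15197 genes, and a gene was called at an adjusted p under 0.05. Total counts per sample were between 43402632 and 64290105. All 12 markers of T cells were well above the filter in every group, and their summed level was 2603 to 2662 FPKM in Control and 2182 to 2294 FPKM with FK506, the lowest group, with 4 of the 12 higher and 8 lower by the count test (median log2 fold change -0.44). Markers of other cells were not evenly spread over the groups: the summed level of 10 B cell markers was 63.3 to 67.6 FPKM in Control and 900 to 940 FPKM with FK506, and that of 10 macrophage and monocyte markers was 4.41 to 4.58 FPKM and 1198 to 1231 FPKM. In bulk RNA, fewer cells of a type and less RNA per cell cannot be told apart.

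FK506 raised 8 of the 10 Treg identity genes over Control, and Ikzf4 was the 1 gene that fell. The 8 include Itgb8, which passed the filter on low values only through the groups with FK506. With no filter the count was also 8 higher and 1 lower. The share of all genes tested that passed the threshold was 41.3% for higher and 39.6% for lower values, so a call by itself was common in this comparison. Higher values made up 51.1% of the calls, and 70.4%, 71.2% and 61.3% of them after scaling to the T cell markers, on log2(TPM + 1) and on log2(FPKM + 1). The size of the changes lay further out: the median log2 fold change of the 10 genes was 2.18, against 0.0238 over all genes tested. By the count test, Entpd1, Nt5e, Foxp3, Ikzf2, Nrp1 and Lrrc32 each rose more than 4-fold, Itgb8 and Itgae rose less, and Gpr83 did not pass. Both scaled to the T cell markers and on log2(TPM + 1) the count was 9 higher and 0 lower, since Gpr83 then passed (log2 0.50 and 0.43, adjusted p = 0.000538 and 0.00146) and the fall of Ikzf4 did not.

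Foxp3 (gene identifier 20371, chrX:7579676-7595243 in GRCm38) was listed at 3.54, 3.19 and 3.70 FPKM in the Control samples and at 27.7, 26.9 and 25.4 FPKM with FK506. With Metformin it was at 2.90, 2.18 and 2.38 FPKM, and with Metformin+FK506 at 32.4, 30.7 and 33.6 FPKM. No 2 groups overlapped, and the order from lowest to highest was Metformin, Control, FK506, Metformin+FK506. The rise from Control to FK506 was 6.61-fold (log2 2.72, SE 0.075, adjusted p = 5.04e-15). These values rest on 476 to 861 reads per sample without FK506 and 4763 to 8311 reads with it. The Foxp3 gene overlaps by 1341 bases with Flicr, a long non-coding RNA listed at a mean of 0.332 FPKM in Control and 1.61 FPKM with FK506, and by 1435 bases with the coding gene Ccdc22. Ccdc22 was listed at a mean of 8.65 FPKM in Control, 10.0 FPKM with Metformin, 9.03 FPKM with FK506 and 6.79 FPKM with both drugs, so it stood above Foxp3 in the groups without FK506 and below it in the groups with FK506. Reads of the shared stretches cannot be told apart where strand is not used.

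Ikzf2 (chr1:69531207-69687351), which encodes Helios, followed the same order of groups except that Control and Metformin overlapped. Its Control samples stood at 1.53, 1.40 and 1.46 FPKM and its Metformin samples at 1.35, 1.26 and 1.45 FPKM. The FK506 samples were at 8.75, 9.12 and 9.37 FPKM and the Metformin+FK506 samples at 10.8, 11.2 and 10.8 FPKM. FK506 raised it 5.34-fold over Control (log2 2.42, SE 0.055, adjusted p = 4.11e-16).

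Ikzf4 (chr10:128630839-128669671) behaved unlike its relative. Its values were 9.24, 8.57 and 9.25 FPKM in Control, 7.11, 7.41 and 7.16 FPKM with Metformin, 6.28, 8.65 and 8.36 FPKM with FK506 and 5.57, 5.79 and 6.06 FPKM with Metformin+FK506. The combination samples were the lowest of all, whereas the FK506 samples reached from below the Metformin range into the Control range. In CPM (library-scaled counts, by the trimmed mean of M-values, TMM) the FK506 samples lay at 42.1 to 46.6 and the Control samples at 59.6 to 61.0, without overlap, and the count test gave a log2 fold change of -0.45 (SE 0.048, adjusted p = 2.34e-07). That fall depends on the scale: it was -0.20 on log2(FPKM + 1), -0.027 after scaling to the T cell markers, and 0.0086 on log2(TPM + 1), none of them past the threshold. These scalings also moved the median of all genes, to 0.185, 0.445 and 0.422 in log2.

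**Figure D1:**
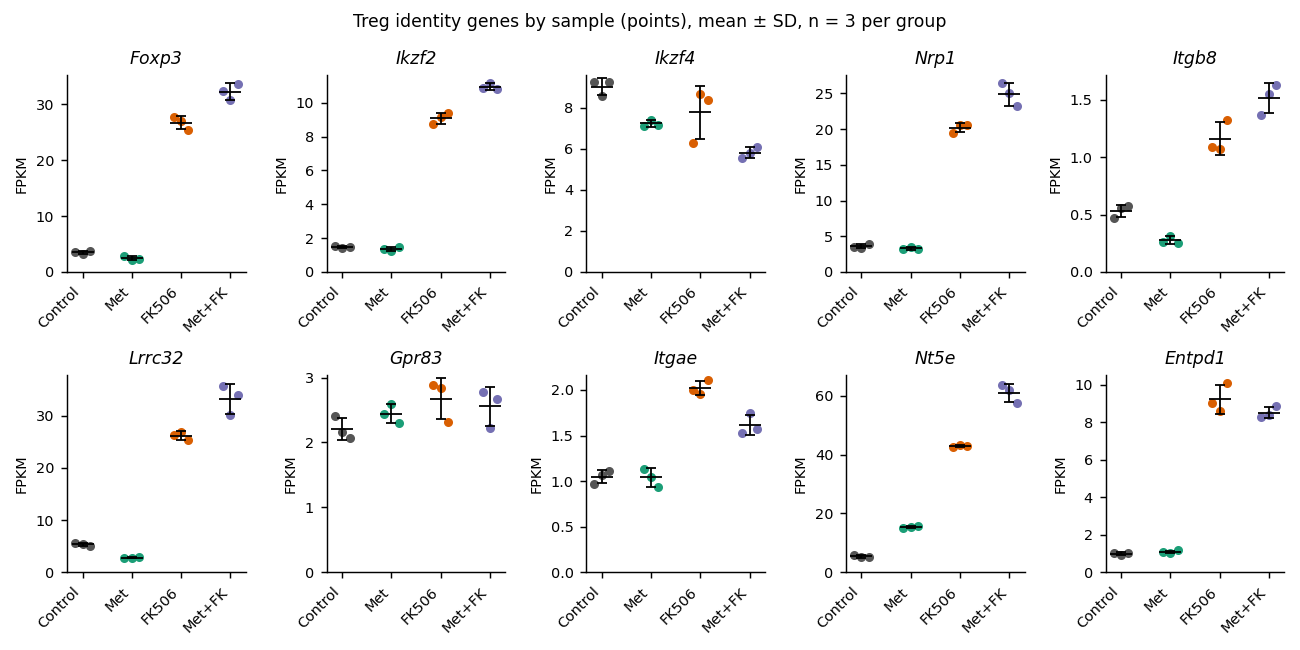
Level of each of the 10 Treg identity genes in FPKM (y axes, each starting at 0) in the 3 samples of each group (points), with the group mean and SD (bars). Foxp3, Ikzf2, Nrp1, Lrrc32, Nt5e and Entpd1 lie several-fold higher in both groups with FK506, Gpr83 overlaps in every group, and Ikzf4 is lowest with both drugs.

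The surface proteins linked to TGF-beta and cell contact rose with FK506 to different extents. Lrrc32 (chr7:98489305-98501831), or GARP, was at 5.52, 5.33 and 5.11 FPKM in Control and at 26.2, 26.9 and 25.2 FPKM with FK506, a 4.23-fold rise (log2 2.08, SE 0.054, adjusted p = 2.46e-15). Nrp1 (chr8:128358591-128505476), the semaphorin receptor neuropilin-1, which marks Treg cells of thymic origin, was at 3.52, 3.33 and 3.87 FPKM in Control and at 19.4, 20.6 and 20.5 FPKM with FK506 (log2 2.28, SE 0.061, adjusted p = 3.54e-15). In both genes every FK506 sample lay far above every Control sample. Itgb8 (chr12:119162803-119238276) was the lowest of the 10 genes, at 0.471, 0.554 and 0.574 FPKM in Control and at 1.09, 1.07 and 1.32 FPKM with FK506. It was the 1 Treg identity gene that passed the filter on low values only through the groups with FK506, although with no filter its change was similar (log2 0.86, adjusted p = 0.00028). It was counted with only 46 to 345 reads per sample, its groups did not overlap, and its log2 fold change of 0.89 had the widest error (SE 0.17, adjusted p = 0.00014). On quantile-normalized FPKM the Itgb8 change was 0.14 and did not pass the threshold.

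Itgae (chr11:73090505-73147449) encodes the alpha-E integrin chain CD103, which pairs with beta-7 and binds E-cadherin. It was listed at 0.972, 1.06 and 1.11 FPKM in Control and at 2.00, 1.96 and 2.11 FPKM with FK506, and the groups did not overlap (log2 fold change 0.64, SE 0.11, adjusted p = 7.88e-05). The coding gene Haspin lies inside Itgae and shares 2811 bases with it, and its mean level was 5.20 FPKM in Control, 4.61 FPKM with Metformin, 3.03 FPKM with FK506 and 2.96 FPKM with both drugs. Haspin was thus listed above Itgae in every group and was lower with FK506, and how reads were split between the pair is not given in the sources used here, so the low Itgae values are uncertain. The Itgae change passed in every alternative setting except the required log2 fold change of at least 1. Its size depended on the scale, from 0.18 on quantile-normalized FPKM to 1.06 scaled to the T cell markers. Gpr83 (chr9:14859880-14870789), a G protein-coupled receptor abundant in Treg cells, was at 2.40, 2.15 and 2.07 FPKM in Control and at 2.88, 2.84 and 2.31 FPKM with FK506. Control and FK506 samples of Gpr83 overlapped, and the log2 fold change was 0.079 with a 95% interval of -0.16 to 0.32 (adjusted p = 0.526).

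The pair of enzymes that make adenosine from extracellular ATP rose most. Nt5e (chr9:88327609-88372089), or CD73, was at 5.96, 5.27 and 5.10 FPKM in Control and at 42.8, 43.2 and 43 FPKM with FK506, a 6.81-fold rise (log2 2.77, SE 0.054, adjusted p = 6.36e-17). Entpd1 (chr19:40612366-40741602), or CD39, was at 1.01, 0.913 and 1.04 FPKM in Control and at 9.04, 8.59 and 10.1 FPKM with FK506, an 8.05-fold rise (log2 3.01, SE 0.083, adjusted p = 4.83e-15). Entpd1 and Nt5e had the largest and second-largest log2 fold changes of the 10 genes, and neither had a Control sample near an FK506 sample. A pseudogene inside Entpd1, Gm8783, was listed at a mean of 3.85 FPKM in Control and 4.98 FPKM with FK506.

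Because FK506 acts on the calcineurin-NFAT pathway, RefSeq promoter windows (GRCm38.p6, 250 bases before to 50 bases after a start site) were read for the genes that rose most. Windows were at hand for 6 of the 10 genes, 8 windows in all. Ikzf2, Ikzf4, Lrrc32 and Itgae had none. The 6 windows of the 4 genes whose log2 fold change with FK506 was above 2 are printed 5′ to 3′ on the plus strand, which is the strand of these genes, with each copy of the NFAT core GGAAA, or TTTCC where it lies on the other strand, in capitals:
Foxp3, chrX:7579426-7579725: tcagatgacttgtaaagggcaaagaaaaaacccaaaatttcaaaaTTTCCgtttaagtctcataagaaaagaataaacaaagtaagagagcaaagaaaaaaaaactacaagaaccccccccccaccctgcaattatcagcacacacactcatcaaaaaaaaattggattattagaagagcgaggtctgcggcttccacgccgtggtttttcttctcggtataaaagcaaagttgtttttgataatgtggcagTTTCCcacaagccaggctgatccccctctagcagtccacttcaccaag
Foxp3, chrX:7580233-7580532: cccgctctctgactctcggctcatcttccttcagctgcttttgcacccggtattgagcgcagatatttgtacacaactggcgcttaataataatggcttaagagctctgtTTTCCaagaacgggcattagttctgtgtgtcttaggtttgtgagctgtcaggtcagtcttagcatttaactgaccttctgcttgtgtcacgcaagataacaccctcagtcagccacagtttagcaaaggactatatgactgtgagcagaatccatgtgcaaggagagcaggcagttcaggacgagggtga
Nrp1, chr8:128358823-128359122: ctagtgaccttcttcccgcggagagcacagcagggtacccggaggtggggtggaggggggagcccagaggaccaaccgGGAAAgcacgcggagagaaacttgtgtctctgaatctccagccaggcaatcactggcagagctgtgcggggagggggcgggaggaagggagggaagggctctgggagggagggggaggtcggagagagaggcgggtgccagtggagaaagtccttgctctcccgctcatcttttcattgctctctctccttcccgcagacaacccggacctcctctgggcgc
Nt5e, chr9:88327359-88327658: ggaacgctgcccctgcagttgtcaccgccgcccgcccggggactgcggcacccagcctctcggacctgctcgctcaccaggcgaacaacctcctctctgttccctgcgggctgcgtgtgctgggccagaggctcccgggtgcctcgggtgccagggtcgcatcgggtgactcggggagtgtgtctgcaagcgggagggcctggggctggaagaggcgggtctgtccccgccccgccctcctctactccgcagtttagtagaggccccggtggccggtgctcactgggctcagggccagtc
Entpd1, chr19:40612116-40612415: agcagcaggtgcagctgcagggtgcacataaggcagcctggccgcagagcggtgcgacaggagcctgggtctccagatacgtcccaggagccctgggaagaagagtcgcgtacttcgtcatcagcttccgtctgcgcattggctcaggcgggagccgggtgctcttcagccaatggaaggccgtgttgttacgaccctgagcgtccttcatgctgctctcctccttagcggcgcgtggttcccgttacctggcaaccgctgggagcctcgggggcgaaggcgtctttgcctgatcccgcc
Entpd1, chr19:40659520-40659819: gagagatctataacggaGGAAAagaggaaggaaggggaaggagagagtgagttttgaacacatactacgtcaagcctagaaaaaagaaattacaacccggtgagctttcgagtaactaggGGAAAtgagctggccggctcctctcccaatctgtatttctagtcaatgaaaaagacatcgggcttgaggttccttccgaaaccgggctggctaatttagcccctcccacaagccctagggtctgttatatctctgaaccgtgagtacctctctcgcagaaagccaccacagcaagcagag

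The first Foxp3 window holds 2 copies of the NFAT core, both on the strand opposite to the gene, and the second holds 1, also on the opposite strand. The second Foxp3 window lies in an intron of 6 of the 9 coding transcripts that GENCODE lists for the gene. Nrp1 has 1 copy, the downstream Entpd1 window has 2, and the Nt5e window and the upstream Entpd1 window have none. In all, 4 of the 8 windows of the Treg identity genes held the core, whereas 61.3% of the 32851 RefSeq promoter windows of the same length did. The AP-1 letters TGANTCA and the forkhead letters TGTTTAC were in 0 of the 8 windows, against 7.81% and 3.65% of all windows. The STAT letters TTCNNNGAA were in 1, the second Foxp3 window, against 8.3% of all windows. All motifs were searched on both strands, and that STAT match shares 4 bases with the NFAT core of the same window. A match of these letters describes the sequence and does not show that a factor binds there.

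**Figure D2:**
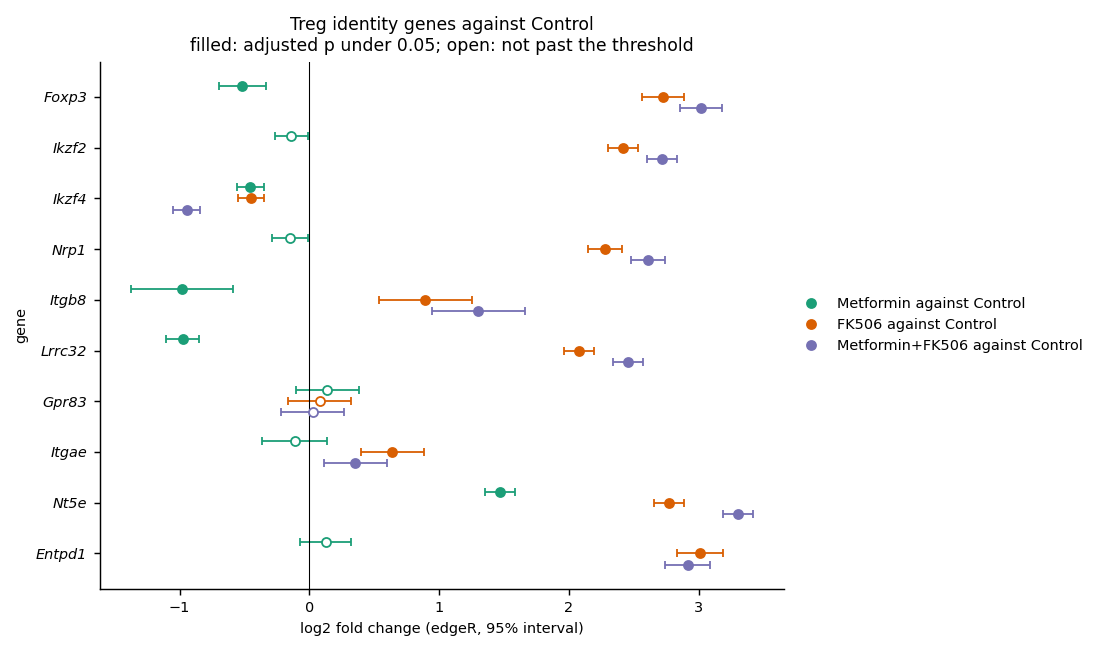
Log2 fold change against Control (x axis, edgeR, with its 95% interval) of the 10 Treg identity genes (y axis) for FK506, Metformin and Metformin+FK506, each group n = 3. Filled points passed an adjusted p of 0.05 and open points did not; the groups with FK506 lie to the right for 8 genes, and Metformin lies to the right only for Nt5e among the genes called.

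Metformin alone lowered 4 of the Treg identity genes and raised 1. Foxp3, Ikzf4, Itgb8 and Lrrc32 fell, Nt5e rose, and the other 5 genes did not pass the test. Of all genes tested, 28.6% rose and 27.4% fell. The median log2 fold change of the 10 genes was -0.14, against 0.0112 over all genes tested.

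Lrrc32 was at 2.71, 2.68 and 2.88 FPKM with Metformin, below every Control sample (log2 fold change -0.98, SE 0.061, adjusted p = 9.94e-10). Itgb8 was at 0.261, 0.314 and 0.251 FPKM with Metformin, again below Control in every sample (log2 fold change -0.98, SE 0.19, adjusted p = 0.00029). So the carrier of latent TGF-beta and the integrin chain that releases it were both lower with Metformin than without a drug. Foxp3 fell by 0.52 on the log2 scale (SE 0.084, adjusted p = 6.72e-05). Ikzf4 fell by 0.45 on the log2 scale (SE 0.048, adjusted p = 6.58e-07).

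Nt5e was at 15.2, 15.4 and 15.7 FPKM with Metformin and was thus the 1 Treg identity gene that each drug raised alone. The rise over Control was 2.77-fold (log2 1.47, SE 0.054, adjusted p = 1.35e-12). Entpd1, the enzyme before it in the pathway, was at 1.08, 1.05 and 1.17 FPKM, just above Control in FPKM but overlapping it in CPM (log2 fold change 0.12, 95% interval -0.068 to 0.32, adjusted p = 0.261). Nrp1 (3.18, 3.45 and 3.22 FPKM) and Ikzf2 had log2 fold changes of -0.15 and -0.14, with adjusted p-values of 0.0589 and 0.0586. Itgae (1.14, 1.05 and 0.936 FPKM) and Gpr83 (2.43, 2.59 and 2.30 FPKM) overlapped Control, with adjusted p-values of 0.438 and 0.329.

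With both drugs together, 8 genes rose over Control, Ikzf4 fell and Gpr83 did not pass the test. Itgb8, which passed the filter on low values only through the groups with FK506, is among the 8. With no filter 8 rose and 1 fell as well. Scaled to the T cell markers, 9 rose and 1 fell, since Gpr83 then passed (log2 0.37, adjusted p = 0.00559), as it did on log2(TPM + 1) (log2 0.40, adjusted p = 0.00237). The backgrounds were 42.1% for higher and 39.6% for lower values, and the median log2 fold change of the 10 genes was 2.53 against 0.0327 over all genes tested. These calls share the Control samples with the comparisons of the single drugs. The largest rise was in Nt5e, at 63.6, 62.1 and 57.6 FPKM (9.85-fold over Control, log2 3.30, SE 0.054, adjusted p = 1.06e-17). Foxp3 rose 8.10-fold (log2 3.02, SE 0.076, adjusted p = 1.46e-15). Ikzf4 fell to a level 1.92-fold lower than Control (log2 -0.94, SE 0.049, adjusted p = 1.95e-11), and over the alternative settings it stayed lower than Control with an adjusted p of at most 0.00698. Itgae showed the smallest called change, 0.36 on the log2 scale (SE 0.12, adjusted p = 0.00978), and on quantile-normalized FPKM that change was -0.0038.

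The study examined treatment with both drugs, and the comparison of Metformin+FK506 with FK506 shows what metformin added to FK506. Adding metformin raised Foxp3, Ikzf2, Nrp1, Lrrc32 and Nt5e further and lowered Ikzf4. Of all genes tested, 15.6% rose and 15% fell, so 5 of 10 higher is above the background share and 1 of 10 lower is near it. Higher values made up 50.9% of the calls, and 29.1% after scaling to the T cell markers. The changes were small beside those of FK506 itself, with a median log2 fold change of 0.30 over the 10 genes and 0.00189 over all genes tested, and none of them reached a factor of 2.

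Nt5e rose by 1.45-fold (log2 0.53, SE 0.047, adjusted p = 3.82e-07), and each combination sample lay above each FK506 sample. Lrrc32 was at 35.7, 30.0 and 33.9 FPKM with both drugs, also above every FK506 sample (log2 fold change 0.37, SE 0.050, adjusted p = 2.71e-05). Foxp3 rose by 1.23-fold (log2 0.29, SE 0.066, adjusted p = 0.00281), and over the alternative settings its log2 fold change ranged from 0.22 to 0.32 with an adjusted p of at most 0.0459. The samples of Foxp3 did not overlap between the groups. Ikzf2 rose by 0.30 in log2 (SE 0.049, adjusted p = 0.000212). Nrp1, at 26.4, 25.0 and 23.2 FPKM with both drugs, rose by 0.33 in log2 (SE 0.055, adjusted p = 0.000275).

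Itgb8 and Itgae moved in opposite directions without passing the threshold. Itgb8 was at 1.37, 1.55 and 1.63 FPKM with both drugs, above every FK506 sample, with a log2 fold change of 0.41 (95% interval 0.067 to 0.75, adjusted p = 0.0661). Itgae was at 1.53, 1.74 and 1.57 FPKM, below every FK506 sample, with a log2 fold change of -0.29 (95% interval -0.52 to -0.046, adjusted p = 0.0669). Each of these differences was called by some of the other tests, Itgae by DESeq2 (log2 -0.29) and Itgb8 by limma on log2(FPKM + 1) (log2 0.22), among others. Entpd1, at 8.29, 8.41 and 8.88 FPKM, overlapped FK506 (log2 fold change -0.095, 95% interval -0.25 to 0.055, adjusted p = 0.337). Gpr83, at 2.77, 2.22 and 2.68 FPKM, overlapped every other group.

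Against Metformin alone, the combination showed what FK506 did where metformin was present. The same directions were seen as for FK506 against Control, with 8 genes higher (background 40.3%) and Ikzf4 lower (background 37.9%), and the 2 comparisons share no samples. The 8 again include Itgb8, which passed the filter on low values only through the groups with FK506, and with no filter 8 rose and 1 fell. On quantile-normalized FPKM the rise of Itgae was lost (log2 0.035, adjusted p = 0.638). Gpr83, which was not called here by the count test, was called lower on quantile-normalized FPKM (log2 -0.23, adjusted p = 0.0226) and higher on log2(TPM + 1) (log2 0.33, adjusted p = 0.00914). Foxp3 rose 11.6-fold (log2 3.53, SE 0.079, adjusted p = 5.41e-16) and Lrrc32 rose 10.8-fold (log2 3.43, SE 0.059, adjusted p = 2.61e-17). Itgb8 rose 4.87-fold (log2 2.28, SE 0.18, adjusted p = 5.75e-09). Nt5e, which started from a higher level with Metformin, rose 3.55-fold (log2 1.83, SE 0.050, adjusted p = 6.12e-15). The fall of Ikzf4 by 0.49 in log2 (adjusted p = 1.27e-07) was absent on log2(TPM + 1), where the value was 0.0054.

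The interaction asks if metformin had an equal effect on a gene in the presence and in the absence of FK506. It passed the threshold for 6 of the 10 genes, with 5 positive and 1 negative, against backgrounds of 22.5% and 24% of all genes tested. Markers of other cells had interactions too, which were negative for 9 of 10 B cell markers and positive for 0 (median -1.60). For the 4 tested endothelial markers 2 were positive and 0 negative, and scaled to the T cell markers 2 were positive and 1 negative. Of these, Cdh5, Kdr and Tek passed the filter on low values only through the groups with FK506. They were at 3 counts or fewer in each Metformin sample, so their metformin effect without FK506 was read at the lowest counts. The part of these other cells in the interactions of the 10 genes was not tested. Foxp3, Ikzf2, Nrp1, Itgb8 and Lrrc32 had a lower value with Metformin than with no drug and a higher value with Metformin+FK506 than with FK506. For Foxp3 the metformin effect was -0.52 without FK506 and 0.29 with it, a difference of 0.81 (SE 0.11, adjusted p = 1.15e-05). For Lrrc32 it was -0.98 and 0.37, a difference of 1.35 (SE 0.078, adjusted p = 7.67e-10). For Itgb8 it was -0.98 and 0.41, a difference of 1.39 (SE 0.25, adjusted p = 0.000216). The differences for Ikzf2 and Nrp1 were smaller, 0.44 and 0.48 (adjusted p = 0.000202 and 0.000223), and their falls with Metformin alone had not passed the threshold.

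Nt5e was the negative case, since metformin raised it in both settings and by less when FK506 was present (1.47 and 0.53, difference -0.94, SE 0.072, adjusted p = 2.13e-08). Ikzf4 had nearly equal metformin effects without and with FK506, -0.45 and -0.49, and the interval of their difference ran from -0.19 to 0.11 (adjusted p = 0.67). The differences for Entpd1, Itgae and Gpr83 were -0.22, -0.17 and -0.19, with adjusted p-values of 0.132, 0.415 and 0.355. Scaled to the T cell markers, that for Entpd1 was -0.35 and passed the threshold (adjusted p = 0.025).

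**Figure D3:**
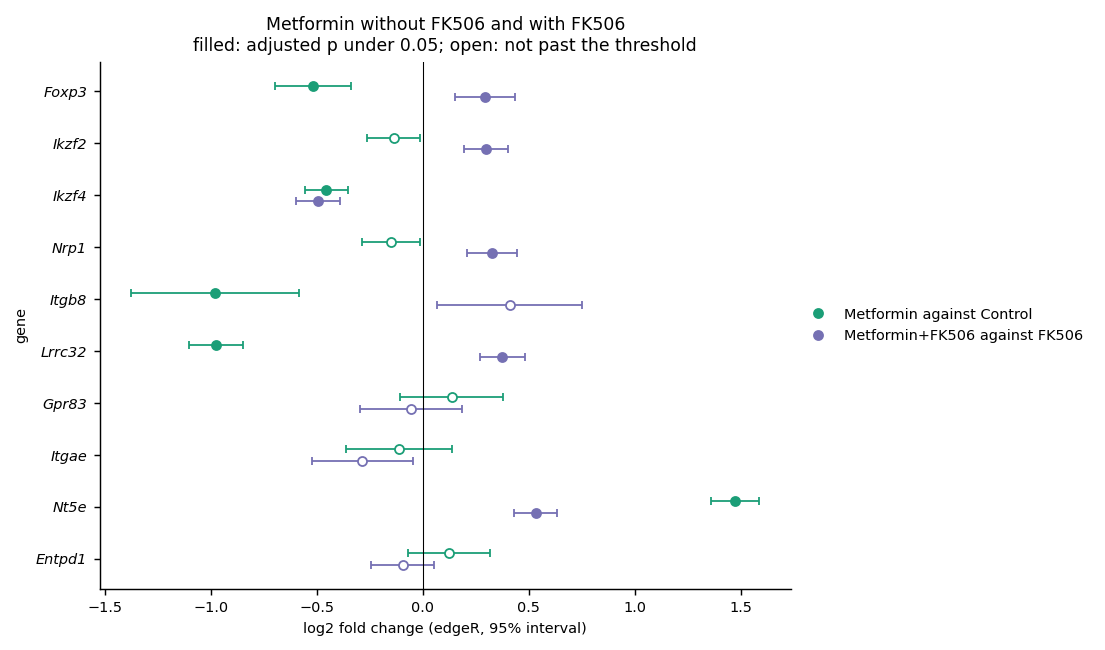
Log2 fold change on adding metformin (x axis, edgeR, with its 95% interval) for the 10 Treg identity genes (y axis), without FK506 (Metformin against Control) and with FK506 (Metformin+FK506 against FK506), each group n = 3. Filled points passed an adjusted p of 0.05; for Foxp3, Ikzf2, Nrp1, Lrrc32 and Itgb8 the intervals lie on opposite sides of 0, and for Ikzf4 they nearly coincide.

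Markers of other cells moved along with these genes. All 10 B cell markers rose with FK506 against Control. Of the macrophage and monocyte markers, Fcgr1 was not tested, and 8 of the 9 tested passed the filter on low values only through the groups with FK506, which fixed their direction against Control. With Metformin+FK506 their summed levels were 435 to 467 FPKM for B cells and 749 to 868 FPKM for macrophages and monocytes, both below FK506 alone. All 10 B cell markers were lower with the combination than with FK506 alone. The macrophage and monocyte sum followed Lyz2, its most abundant gene, which was at 972 to 993 FPKM with FK506 and 483 to 610 FPKM with both drugs (log2 fold change -0.84, adjusted p = 6.01e-07). Lyz2 was the 1 of the 9 tested markers that fell, 3 rose (C1qb, Cd68 and Mrc1, by 0.29, 0.18 and 0.58 in log2), 5 did not pass the test, and the median log2 fold change was 0.16. On log2(FPKM + 1), 4 rose and 2 fell, and scaled to the T cell markers 1 rose and 2 fell, with medians of 0.13 and 0.086. Of the 4 tested endothelial markers, Cdh5, Kdr and Tek rose by 1.47, 1.14 and 1.16 in log2, and Pecam1 was at 0.011. So some markers of macrophages and endothelium were higher with the combination than with FK506 alone, as Foxp3, Ikzf2, Nrp1, Lrrc32 and Nt5e were, whereas the B cell markers were lower. In Control, 5 of the macrophage and monocyte markers (C1qa, C1qb, Csf1r, Adgre1 and Fcgr1) were at 3 counts or fewer in each sample.

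The summed level of the 6 platelet markers was 0.542 to 0.835 FPKM in Control, 11.1 to 18.1 FPKM with FK506 and 11.2 to 19.8 FPKM with both drugs. That of the 5 endothelial markers was 9.31 to 9.90, 44.3 to 47.7 and 52.7 to 56.1 FPKM. Dendritic cell markers summed to 290 to 298 FPKM in Control, 72.1 to 76.5 FPKM with Metformin, 126 to 128 FPKM with FK506 and 111 to 115 FPKM with both. Of these 10 markers 4 were not tested, and 3 of the 6 tested passed the filter on low values only through the groups with FK506. Although the sum was lower with FK506 than in Control, 5 of the 6 tested were called higher and 1 lower. Most of the Control sum was Bst2, and Xcr1, Clec9a, Siglech, Cd209a and Ccr9 were at 0 counts in Control. The 6 markers of CD8 T and NK cells summed to a median of 14.3 FPKM in Control, 23.2 FPKM with Metformin and 23.7 FPKM with FK506, every Control sample lying below every sample of the other groups. Of the 4 tested, 4 were called higher with Metformin, whereas with FK506 1 was higher and 2 lower (median log2 fold change -0.17). Scaled to the T cell markers, FK506 gave 2 higher and 1 lower. Metformin alone also went with a higher B cell sum, at 88.1 to 103 FPKM with 8 of 10 markers higher and 1 lower, and with a higher macrophage and monocyte sum, at 8.73 to 10.0 FPKM with 2 of 9 tested markers higher and 2 lower. Those 2, Csf1r and Mrc1, were at 3 counts or fewer in each Metformin sample, and on log2(FPKM + 1) 2 of the 9 were higher and 0 lower. The part of these cells in the rise of Nrp1, Lrrc32, Nt5e, Entpd1, Itgb8 and Foxp3 with FK506, and in the changes of Foxp3, Ikzf4, Lrrc32, Itgb8 and Nt5e with Metformin, was not tested.

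Relative to the T cell markers, Foxp3 was still several-fold higher with FK506. Over the 12 T cell markers the geometric mean level was 195 and 193 FPKM in the Control and Metformin groups, and 169 and 175 FPKM in the FK506 and Metformin+FK506 groups. Per 100 FPKM of this T cell level, Foxp3 was at 1.78 ± 0.147 (SD, n = 3) in the Control group and 1.29 ± 0.179 in the Metformin group. The FK506 group was at 15.7 ± 0.334 and the Metformin+FK506 group at 18.5 ± 0.390. Gpr83, whose count-based change was near 0, was at 1.13 ± 0.0769 in Control and 1.58 ± 0.157 with FK506 on this scale, and when the count test was scaled to the T cell markers its log2 fold change of 0.50 passed the threshold.

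**Figure D4:**
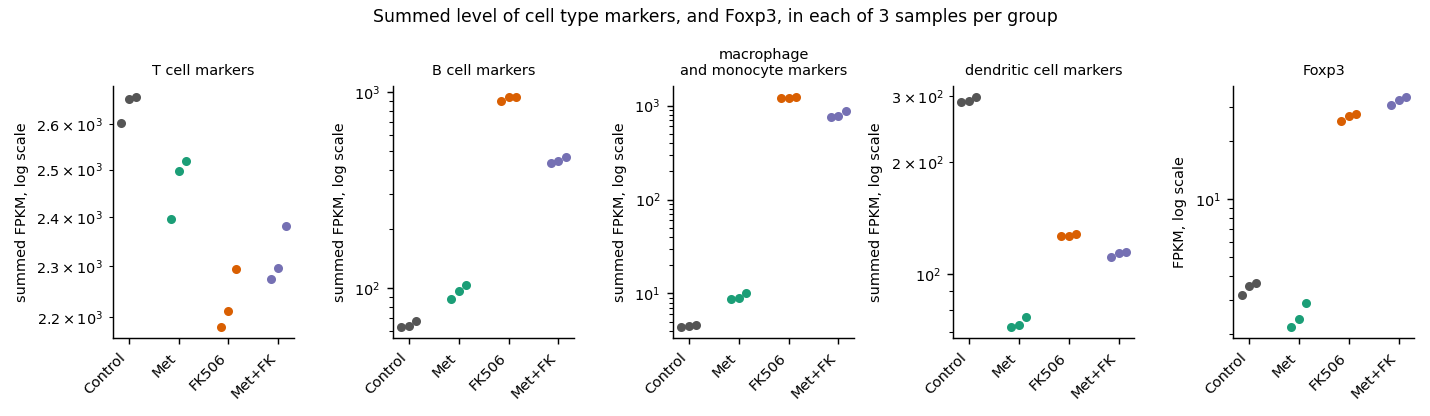
Summed FPKM of the markers of T cells, B cells, macrophages and monocytes, and dendritic cells, and FPKM of Foxp3, in each of the 3 samples per group (points; y axes on a log scale that does not start at 0). The B cell sum and the macrophage sum, which is mostly Lyz2 in the groups with FK506, are highest with FK506 alone, Foxp3 is highest with Metformin+FK506, and the T cell sum lies between 2182 and 2662 FPKM, with every FK506 sample below every Control sample.

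The other genes of each member's pathway were taken from lists by function, of which the Ikaros, TGF-beta and adenosine lists also hold the members of that pathway. The counts below stand against the shares of all genes tested, which were 41.3% higher and 39.6% lower with FK506, 28.6% and 27.4% with Metformin, and 15.6% and 15% when metformin was added to FK506. The Ikaros family did not move together with FK506: of 5 members, Ikzf2 and Ikzf3 rose, Ikzf4 fell, and Ikzf1 and Ikzf5 did not pass the test. Scaled to the T cell markers, 4 of the 5 rose and 0 fell. Ikzf3, which encodes Aiolos, was at 18.2 to 20.1 FPKM in Control and 42.9 to 49.9 FPKM with FK506 (log2 fold change 0.91, SE 0.058, adjusted p = 2.89e-10). Unlike Ikzf2, Ikzf3 also rose with Metformin (log2 0.59, adjusted p = 2.47e-07) and fell when metformin was added to FK506 (log2 -0.43, adjusted p = 3.14e-05).

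Relatives and partners of Foxp3 were split, with 7 of 15 higher, 7 lower and a median log2 fold change of 0.043 with FK506 (9 higher and 5 lower when scaled to the T cell markers). These shares are near those of all genes tested. Foxp1, the close paralog that pairs with Foxp3, was at 15.9 to 16.1 FPKM in Control and 38.6 to 40.9 FPKM with FK506 (log2 1.11, SE 0.039, adjusted p = 1.22e-13). Gata3, a Th2 factor that also binds with Foxp3 in Treg cells, fell from 46.1 to 46.5 FPKM to 13.6 to 14.5 FPKM (log2 -1.95, SE 0.041, adjusted p = 1.74e-16). Crem and Satb1, the latter a chromatin organiser that Foxp3 represses, fell by 1.51 and 1.26 on the log2 scale. With Metformin, 5 of the 15 rose and 7 fell, and Gata3 was again the gene with the largest change (log2 -1.44, adjusted p = 5.53e-14).

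In TGF-beta activation and signalling, 10 of 17 tested genes rose with FK506 and 5 fell, with a median log2 fold change of 0.44. Itgb8, which passed the filter on low values only through the groups with FK506, is among the 10. On log2(TPM + 1) or scaled to the T cell markers, 12 rose and 4 fell, with a median of 0.86 on both scales, where the median of all genes was 0.422 and 0.445. Nrros, a relative of Lrrc32 that holds latent TGF-beta on myeloid cells, was at 10.9 to 11.6 FPKM in Control and 55.6 to 60.0 FPKM with FK506 (log2 2.16, SE 0.035, adjusted p = 5.83e-18). Unlike Lrrc32, Nrros rose with Metformin (log2 0.21, adjusted p = 9.61e-05) and fell when metformin was added to FK506 (log2 -0.43, adjusted p = 5.69e-08). Tgfb1, the ligand itself, was at 74.5 to 79.9 FPKM in Control and 86.5 to 93.3 FPKM with FK506, with a count-based log2 fold change of 0.018 (adjusted p = 0.677). Ltbp3 and Tgfb3 fell by 2.11 and 2.01 on the log2 scale. Itgav, the alpha chain with which beta-8 pairs, also fell with FK506, from 17.7 to 19.5 FPKM to 12.8 to 14.5 FPKM (log2 -0.65, SE 0.048, adjusted p = 2.39e-09).

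With Metformin the same list was nearly even, 8 higher and 7 lower. The genes with the largest changes were Tgfb3 (log2 -1.95, adjusted p = 3.23e-09) and Ltbp3, Itgb8 and Lrrc32, each at -0.98. When metformin was added to FK506, 9 of the 17 rose and 1, Nrros, fell, with a median log2 fold change of 0.24 against 0.00189 over all genes tested. Scaled to the T cell markers, 7 rose and 2 fell. Ltbp3 rose by 1.10 and the co-receptor Tgfbr3 by 0.85 in log2 (adjusted p = 2.68e-05 and 1.66e-09).

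In the adenosine and extracellular ATP list, 7 of 12 genes rose with FK506 and 2 fell, and with Metformin 9 rose and 0 fell (9 and 1 on log2(FPKM + 1)). Adora2a, the main adenosine receptor of T cells, was at 18.9 to 19.7 FPKM in Control, 25.8 to 29.9 FPKM with Metformin, 48.9 to 50.1 FPKM with FK506 and 39.9 to 41.6 FPKM with both drugs. FK506 raised it by 1.13 in log2 (SE 0.045, adjusted p = 5.47e-13) and Metformin by 0.50 (SE 0.045, adjusted p = 9.43e-08). The lower-affinity receptor Adora2b fell with FK506 (log2 -2.22, adjusted p = 2.40e-09), and the nucleoside carrier Slc28a2 rose (log2 1.85, adjusted p = 6.36e-16). With Metformin the ATP-gated channel P2rx7 had the largest rise of the list, just ahead of Nt5e (log2 1.5, SE 0.078, adjusted p = 1.10e-10). The interaction was negative for 9 of the 12 genes and positive for 0, so the log2 change with metformin was lower in the presence of FK506 for these genes, Nt5e among them. The 3 genes that did not pass it include Entpd1.

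**Figure D5:**
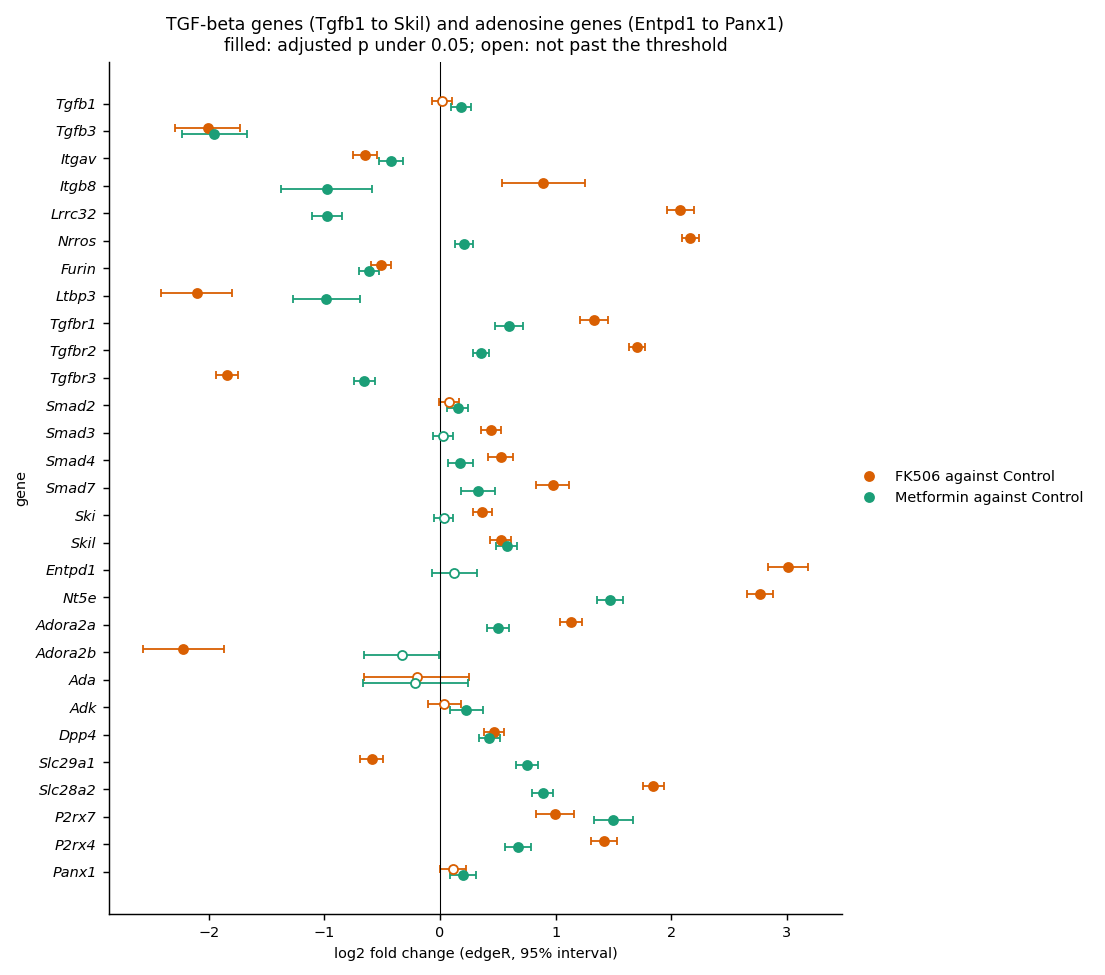
Log2 fold change against Control (x axis, edgeR, with its 95% interval) of the 17 tested genes of TGF-beta activation and signalling (Tgfb1 to Skil) and the 12 adenosine and extracellular ATP genes (Entpd1 to Panx1) for FK506 and Metformin, each group n = 3. Filled points passed an adjusted p of 0.05; Lrrc32 and Itgb8 lie on opposite sides of 0 for the 2 drugs, and Nt5e and Adora2a lie above 0 for both.

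Of 9 partners of the integrins and neuropilin, Cdh1 and Plxna4 were not tested, and Nrp2 and Sema3a passed the filter on low values only through the groups with FK506, so that their direction was fixed by it. Of the other 5, 3 were higher with FK506 and 2 lower. Itgb7, the beta chain of CD103, was at 47.6 to 49.3 FPKM in Control and 90.8 to 92.0 FPKM with FK506 (log2 0.70, SE 0.035, adjusted p = 1.03e-11), and thus stood far above Itgae. Itga4, the other alpha chain that pairs with beta-7, went from 3.98 to 4.45 FPKM to 49.9 to 55.8 FPKM (log2 3.41, SE 0.052, adjusted p = 3.60e-18). Nrp2, the paralog of Nrp1, was at 0.144 to 0.192 FPKM in Control and 16.3 to 17.7 FPKM with FK506 (log2 6.31, SE 0.11, adjusted p = 1.59e-17). Nrp2 parted from Nrp1 when metformin was added to FK506: it fell by 0.69 in log2 (adjusted p = 2.20e-06), to 10.1 to 10.8 FPKM, whereas Nrp1 rose.

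Other genes of the Treg signature were split. Of 14 such genes, 4 were higher and 7 lower in FK506 than in Control, and the median change was -0.29 in log2. Scaled to the T cell markers these numbers were 7 and 6, with a median of 0.13. For Metformin+FK506 against Metformin, 8 rose and 4 fell, with a median of 0.41, and scaled to the T cell markers 10 rose and 4 fell, with a median of 0.70. These counts and medians include Ccr6 and Il1rl1, which passed the filter on low values only through the groups with FK506, so that their direction was fixed by it. Ccr6, a chemokine receptor also known from B cells and Th17 cells, went from 0.228 to 0.322 FPKM to 37.3 to 39.5 FPKM (log2 7.01, SE 0.096, adjusted p = 1.30e-18), Swap70 rose by 2.57 and Tnfrsf1b by 2.54 in log2. Ccr4, a receptor of skin-homing T cells, fell by 2.87 on the log2 scale (SE 0.053, adjusted p = 3.33e-17).

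Treg genes that activated T cells also use went mostly the opposite way to Foxp3 with FK506. Of 16 such genes, FK506 lowered 12 and raised 3 (median log2 fold change -1.64), and Metformin lowered all 16 (median -0.89, with 14 to 16 called lower and 0 higher under the other scalings). Il2ra, the high-affinity IL-2 receptor chain CD25, was at 338 to 342 FPKM in Control, 154 to 158 FPKM with Metformin and 49.1 to 53.6 FPKM in the 6 samples with FK506, alone or with metformin. Its log2 fold change with FK506 was -2.96 (SE 0.036, adjusted p = 4.90e-19), and adding metformin to FK506 gave 0.040 (adjusted p = 0.409). Ctla4, an inhibitory receptor, fell from 171 to 178 FPKM to 53.7 to 59.7 FPKM (log2 -1.86, SE 0.046, adjusted p = 1.26e-15), and Tnfrsf18, or GITR, from 372 to 392 FPKM to 83.0 to 95.5 FPKM (log2 -2.29, SE 0.054, adjusted p = 6.16e-16).

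Icos, a co-stimulatory receptor, was at 27.1 to 27.5 FPKM in Control and 29.2 to 31.3 FPKM with FK506, and its log2 fold change of -0.054 did not pass the test (adjusted p = 0.218). Il10, a suppressive cytokine, was at 10.5 to 10.9 FPKM in Control, 0.687 to 0.987 FPKM with Metformin, 4.33 to 5.75 FPKM with FK506 and 5.70 to 6.75 FPKM with both drugs. The interaction was positive for 14 of these 16 genes and negative for 1, Cd83. For Il10 it was 4.05 in log2 (SE 0.20, adjusted p = 8.26e-11), the metformin effect being -3.67 without FK506 and 0.38 with it.

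The genes whose profile over the 12 samples was most like that of Foxp3 were ranked by the root mean square difference between log2(FPKM + 1) values centred on each gene's own mean, a measure that also follows amplitude on that scale. Adding 1 shrinks the fold changes of genes at low levels, so a close gene can still differ from Foxp3 in its fold change. The 5 closest of 15196 genes were Cxcl9, Gm14548, Ccdc88a, C2 and Rgl1, with differences of 0.155 to 0.169. Cxcl9, a chemokine of interferon-treated macrophages, was at 0.0398 to 0.0569 FPKM in Control, 5.42 to 6.70 FPKM with FK506 and 7.22 to 9.05 FPKM with both drugs. Ccdc88a, which encodes the actin-binding protein girdin, was at 0.639 to 0.760 FPKM in Control, 9.71 to 10.5 FPKM with FK506 and 11.2 to 11.6 FPKM with both drugs.

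Among the Treg identity genes, Lrrc32 came closest to Foxp3, at rank 22 (difference 0.222), followed by Nrp1 at 82, Ikzf2 at 194 and Entpd1 at 199. Nt5e, which departed from Foxp3 in its response to Metformin, was at rank 707. Itgb8, Itgae, Gpr83 and Ikzf4 were at ranks 2706, 4784, 7828 and 10870.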

How the data were processed

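For 12 samples in 4 groups of 3, the authors deposited unnormalized whole-number counts of reads for each gene. The deposited table also holds FPKM values, which the authors scaled to transcript length and library size, and TPM values, which the authors scaled so that each sample has the same sum. The submitters' processing notes name bcl2fastq 2.20.0, Trimmomatic, HISAT2 2.1.0, StringTie 2.1.3b and the build mm10 (GRCm38). The use of strand and the handling of reads shared by paralogs are not given in the sources used here. Samples were grouped by the labels.

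Counts of the 15197 genes that reached 0.5 FPKM in 3 or more samples were fitted with edgeR 4.0.16 in R 4.3.3 (TMM factors, glmQLFit and glmQLFTest, 1 fit of all 12 samples, 8 residual degrees of freedom). The 5 comparisons and the interaction were adjusted by Benjamini-Hochberg over all genes tested. The fit was tested on simulated data for FK506 against Control: of 200 genes changed by a factor of 2 among 15197, 183 were called (91.5%), with 11 false calls. The changed genes were drawn from those with higher counts, equal numbers being raised and lowered. The simulation thus does not cover genes with low counts or data in which most genes change. Alternatives were other size factors (DESeq2's, upper quartile, T cell markers), DESeq2 1.42.0, limma 3.58.1 on log2 FPKM with a pseudocount of 1 or 0.1 and after quantile normalization, other filters, a fold minimum, a replicate block, the compared groups alone and each sample left out. Limma on log2(TPM + 1) was added after seeing the data.

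The members, lists and tests were chosen with earlier results of these data known. Named genes were the 10 members, up to 4 genes per list with the largest change, fixed partners of members, and the 5 genes most like Foxp3. Coordinates are of RefSeq GRCm38.p6. Counts limit precision through sampling only, and no replicate pair was within sampling noise.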

Additional observations from a re-analysis of the deposited data

Results flagged for a closer look

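The effect of metformin differed between cultures with and without FK506 in 6 of the 10 Treg identity genes, by the interaction term of the edgeR fit (Benjamini-Hochberg adjusted over all genes tested, of which 22.5% had a positive and 24% a negative interaction). The difference in log2 fold change, with FK506 minus without, was 0.81 for Foxp3 (adjusted p = 1.15e-05), 1.35 for Lrrc32 (adjusted p = 7.67e-10) and 1.39 for Itgb8 (adjusted p = 0.000216). It was 0.44 for Ikzf2 (adjusted p = 0.000202) and 0.48 for Nrp1 (adjusted p = 0.000223). In these 5 genes the fitted value was lower with metformin alone than in Control and higher when metformin was added to FK506, although the change without FK506 did not pass the threshold for Ikzf2 and Nrp1, nor the change with FK506 for Itgb8. For Nt5e the difference was -0.94 (adjusted p = 2.13e-08), and both changes were rises that passed the threshold.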

How the results depend on the processing

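The number of Treg identity genes called kept within 1.5 times its value in all 6 comparisons under every alternative except a required log2 fold change of at least 1, and leaving out single samples gave 5 to 7 calls for Metformin against Control, 6 or 7 for Metformin+FK506 against FK506 and the reported number elsewhere. That minimum left 1 of 5 genes called for Metformin against Control (Nt5e), 0 of 6 for Metformin+FK506 against FK506 (edgeR, with 8 genes at an unadjusted p under 0.05) and 2 of 6 for the interaction, since the fold changes are smaller than the minimum. Over all genes tested it left 5556 for FK506 against Control, 1589 for Metformin against Control, 5677 for Metformin+FK506 against Control, 640 for Metformin+FK506 against FK506, 4897 for Metformin+FK506 against Metformin and 1813 for the interaction, from 12297, 8511, 12412, 4660, 11880 and 7064.

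Of the single-gene values, 1092 kept their direction and side of the threshold and 15 changed sign, and of those with an unchanged sign 18 newly passed the threshold and 5 no longer passed it. Among the 15, Ikzf4 and Itgae lost their calls with the change of sign, and Gpr83 on log2(TPM + 1) gained one. Gpr83 changed sign most often. For Metformin+FK506 against Metformin it was 0.18 scaled to the T cell markers, 0.044 on log2(FPKM + 1), 0.058 on log2(FPKM + 0.1) and 0.33 on log2(TPM + 1). For Metformin+FK506 against Control it was -0.17 on quantile-normalized FPKM, -0.029 with no filter, -0.0025 with filterByExpr, -0.017 without Control replicate 3, and -0.036 and -0.013 without Metformin+FK506 replicates 1 and 3 (leaving out each sample in turn, -0.036 to 0.11). It was -0.17 for FK506 against Control on quantile-normalized FPKM, and 0.026 for Metformin+FK506 against FK506 without Metformin+FK506 replicate 2 (leaving out each sample in turn, -0.16 to 0.026). Itgae for Metformin+FK506 against Control was -0.0038 on quantile-normalized FPKM. Ikzf4 on log2(TPM + 1) was 0.0086 for FK506 against Control and 0.0054 for Metformin+FK506 against Metformin. For these changes the cause was not tested.

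The call for Itgae between Metformin+FK506 and FK506 was made by DESeq2 (log2 -0.29), on log2(FPKM + 1) (-0.21), scaled to the T cell markers (-0.36) and without Metformin+FK506 replicate 2 (-0.37). That for Itgb8 was made by the 3 limma fits on log2(FPKM + 1), quantile-normalized FPKM and log2(TPM + 1) (0.22, 0.24 and 0.32). Metformin against Control passed for Ikzf2 without Control replicate 2 or Metformin replicate 3 (-0.17 and -0.18) and for Nrp1 without Control replicate 2 or Metformin replicate 2 and by DESeq2 (-0.20, -0.19 and -0.15).

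The share of calls that were higher moved from 51.6% to 67.3% in Metformin+FK506 against Control, from 51.6% to 68.1% against Metformin, and from 48.3% to 31.7% in the interaction when scaled to the T cell markers. On log2(TPM + 1) the first 2 were 71% and 75.5%. Replicate numbers did not pair the samples: 18 correlations of same-numbered samples' deviations lay between -0.0713 and 0.05. With the replicate block the calls over all genes were 12198, 8312, 12308, 4326, 11749 and 6793 in the same order, and the members' counts were the same in all 6.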
